A study of Rattus norvegicus with 2 samples.

Results

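The mitotic spindle, kinetochore and kinesin genes were compared between rat lung cells and a mixture of cultured rat cells. The members were taken by gene symbol: all kinesins whose symbol starts with Kif and a digit, all symbols starting with Cenp, Aurk or Plk and a digit, and 21 named mitosis genes such as Mki67, Top2a, Bub1 and Tpx2. They held 102 of the 20417 probes with a gene name and 73 of the 15611 genes measured. The named genes Anln, Ndc80, Ube2c and Spc24 had no probe of that symbol in the platform annotation and were not analysed here as members. Both arrays, replicates 1 and 2, carried RNA of untreated lung cells that were not cultured, labelled with Cy3. Each was hybridised against the same RNA, mix1, labelled with Cy5, from bone marrow cells (BMC) and primary ear fibroblasts (PEF) of rat, cultured apart in medium with fetal bovine serum. The sources used here give neither strain nor age of the animals. Because mix1 was cultured and lung was not, culture and the source of the cells cannot be told apart.

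At mitosis the spindle, built of microtubules, attaches to each chromosome at the kinetochore, a protein assembly on the centromere. Kinesins are motor proteins that walk along microtubules or take them apart. Some act mainly in mitosis, and others carry cargo or serve cilia in cells that do not divide. The spindle checkpoint holds back anaphase until the chromosomes are attached, and kinases of the Aurora and Polo families drive the steps. Many of these genes are transcribed late in the cell cycle, so their RNA is abundant in dividing cells and scarce in resting tissue.

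Values are log2 ratios of lung over mix1, as the authors deposited them, averaged over the probes of a gene. The direction is likely, not stated outright: the series text describes the difference of lung from mix1, and 6 lung epithelial genes (Sftpc, Sftpa1, Sftpb, Sftpd, Scgb1a1 and Ager) lay between 3.94 and 7.02 when read that way. Were the sign the other way, every direction below would reverse. The median gene lay at -0.19 in replicate 1 and -0.26 in replicate 2, so a ratio near -0.2 was that of the median gene. Whether separate animals gave the lung samples is not said in the labels. The p-values therefore cover only the spread of these samples, possibly a technical one, and mix1, a single control RNA, adds no spread of its own. Array number limits the precision of each value, and no array had the dyes swapped. In bulk RNA, fewer cells of a type and less RNA per cell cannot be told apart.

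Most of the mitotic genes were lower in lung, while kinesins of transport and cilia were called lower or higher in shares near those of all genes. Of the 73 members, 49 were lower in lung and 13 higher by limma's moderated test against 0, with a Benjamini-Hochberg adjusted p under 0.05, and 11 did not pass. Among all genes tested the same test called 49.7% lower and 32.9% higher, 82.7% in all. At least 2-fold lower in both arrays were 35 members, against 15.8% of all genes, and at least 2-fold higher were 4 members, against 16.5% (32.3% of all genes in either direction). Against a 2-fold change, limma's treat called 33 members lower and 4 higher, beside 12.0% and 13.7% of all genes, or 25.8% together. The 45 members grouped as mitotic, with earlier results of these data known, accounted for 31 of those 35. Their median log2 ratio was -2.39, against -0.22 over all genes tested, and 38 of them were lower, 1 was higher and 6 did not pass. The 21 other kinesins had a median of 0.38, which turned to -0.26 when each gene was read by its median probe, and 7 other genes with a Cenp, Aurk or Plk name had a median of 0.34.

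**Figure D1:**
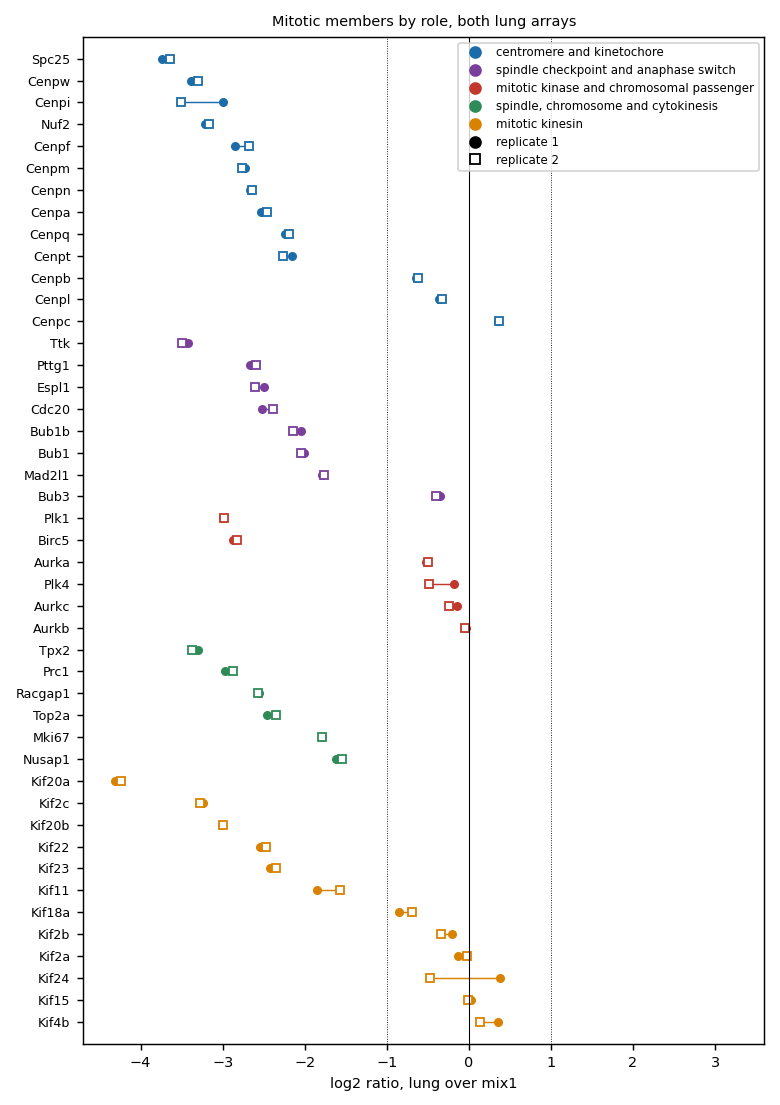
Log2 ratio of lung over mix1 for the 45 members grouped as mitotic, in role groups and by mean within each group. Filled circles are replicate 1, open squares replicate 2, and dotted lines mark a 2-fold difference. Most genes sit left of the 2-fold line with nearly the same value on both arrays, from Kif20a at -4.28 to Cenpc at 0.37.

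The promoter windows of 4 of the 10 lowest members and of the highest are printed here, because short motifs in them are compared with the ratios below. The 4 were chosen as windows that hold the motif TTTGAA. Kif20a and Kif2c, also among the lowest, were passed over because their windows lack it, and Kif2c has neither motif. Tpx2, lower than Cenpi, was passed over because no window was found for it. The sequences are RefSeq's for build GRCr8, from 250 bases before the gene start to 20 bases from the start on, written along the gene. Capitals mark TTTGAA, the core of the cell cycle genes homology region, and CCAAT, the box bound by the factor NF-Y, on either strand. A further CCAAT in Spc25, at bases 17 to 21 from the start on, runs past the printed end and is left in lower case. The windows lie at chr3:74396699-74396968 on the minus strand for Spc25, chr8:93634389-93634658 on the plus strand for Ttk, chr1:29353720-29353989 on the plus strand for Cenpw, chrX:101809409-101809678 on the plus strand for Cenpi and chr9:18870770-18871039 on the minus strand for Kif6.
Spc25: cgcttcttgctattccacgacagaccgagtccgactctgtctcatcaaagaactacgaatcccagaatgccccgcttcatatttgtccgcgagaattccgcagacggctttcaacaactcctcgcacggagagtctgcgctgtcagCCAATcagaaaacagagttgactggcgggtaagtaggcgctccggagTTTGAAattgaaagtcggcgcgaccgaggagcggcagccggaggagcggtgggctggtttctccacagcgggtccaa
Ttk: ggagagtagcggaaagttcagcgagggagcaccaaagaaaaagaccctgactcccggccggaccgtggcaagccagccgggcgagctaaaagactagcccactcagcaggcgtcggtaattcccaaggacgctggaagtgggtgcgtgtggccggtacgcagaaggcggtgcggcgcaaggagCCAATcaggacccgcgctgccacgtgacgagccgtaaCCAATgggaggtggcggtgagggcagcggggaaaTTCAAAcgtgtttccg
Cenpw: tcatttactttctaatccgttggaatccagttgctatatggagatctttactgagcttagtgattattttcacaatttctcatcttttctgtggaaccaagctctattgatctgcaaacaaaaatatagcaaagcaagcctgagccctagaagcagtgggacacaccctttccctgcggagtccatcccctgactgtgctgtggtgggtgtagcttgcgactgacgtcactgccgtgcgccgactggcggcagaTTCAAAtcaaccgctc
Cenpi: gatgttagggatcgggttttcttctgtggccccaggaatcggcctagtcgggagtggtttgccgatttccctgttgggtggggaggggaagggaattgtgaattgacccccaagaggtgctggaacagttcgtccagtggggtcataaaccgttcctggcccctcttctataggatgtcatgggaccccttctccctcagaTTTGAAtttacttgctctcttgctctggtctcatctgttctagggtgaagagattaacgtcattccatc
Kif6: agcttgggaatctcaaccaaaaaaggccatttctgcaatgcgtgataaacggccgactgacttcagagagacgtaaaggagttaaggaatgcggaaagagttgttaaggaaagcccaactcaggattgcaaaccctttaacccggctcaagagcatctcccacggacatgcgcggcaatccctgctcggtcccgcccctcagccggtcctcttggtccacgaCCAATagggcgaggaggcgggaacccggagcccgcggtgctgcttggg

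Centromere and kinetochore genes were lower in lung for 12 of 13 members, against 49.7% of all genes, with a median log2 ratio of -2.65. Spc25, a subunit of the Ndc80 complex that grips microtubules, had log2 ratios of -3.74 and -3.65 in replicates 1 and 2, or 13.0-fold lower in lung. Its partner in that complex, Nuf2, had -3.21 and -3.17. Cenpw, which pairs with Cenpt in a DNA-binding complex of the inner kinetochore, had -3.39 and -3.31. For these genes the gap between the arrays was small beside the ratio. Cenpi, of the inner kinetochore, was further apart, with -3.00 and -3.50. Cenpf, a large coiled-coil protein that joins the outer kinetochore late in the cycle, averaged -2.76 ± 0.12 (SD, n = 2). Cenpa, the histone variant that marks the centromere, had -2.53 and -2.46, or 5.63-fold lower. Cenpn, which recognises nucleosomes holding that variant, averaged -2.65 ± 0.02, and Cenpm, another inner kinetochore subunit, averaged -2.75 ± 0.03. Cenpq and Cenpt were close to each other, at -2.22 ± 0.03 and -2.21 ± 0.08. These 10 genes were all at least 2-fold lower in both arrays, with limma adjusted p between 0.00117 and 0.00351.

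The other 3 centromere genes lay within 2-fold of 0. Cenpb, which binds a motif in centromeric repeats, had -0.64 and -0.62 (limma adjusted p 0.00304). Cenpl, the partner of Cenpn, had -0.37 and -0.33 (limma adjusted p 0.00831). Cenpc, which links centromeric nucleosomes to the outer kinetochore, had 0.36 and 0.37 (adjusted p 0.00678). Cenpc was the only member of the mitotic role groups called higher in lung. Its probes averaged 0.07 and 0.66, and read by the lower one it was no longer called (limma adjusted p 0.144). Cenpv, a centromere and midzone protein in human cells, was grouped apart from these genes and was also called higher, as given below. So were the centrosome and centriole genes Kiz and Cenpj, while Plk4 and Kif24, also of centrioles, stayed among the mitotic genes. The counts of the mitotic groups depend on this sorting, made with earlier results of these data known. Subtracting the median gene of each array raised the ratios by 0.22 on average, and Cenpl was then no longer called (-0.13, adjusted p 0.194). Limma's variances were estimated anew in that setting, and the limma adjusted p of Spc25 fell from 0.00117 to 4.39e-10. Calls gained in it, given below, need not rest on the shift alone. Another 3 probes carry a member's name only in the current gene table, and were chosen here after their values were seen: Cenpu averaged -2.43 ± 0.16, Cenps -2.16 ± 0.01, and a probe annotated as an Spc24 pseudogene -3.05 ± 0.01, all called lower.

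All 8 genes of the spindle checkpoint and the anaphase switch were lower in lung, against 49.7% of all genes, with a median of -2.27. At least 2-fold lower in both arrays were 7 of them, against 15.8% of all genes. Ttk, the kinase that starts the checkpoint at unattached kinetochores, had -3.43 and -3.50 in replicates 1 and 2, or 11.0-fold lower. Pttg1, or securin, which restrains separase, had -2.67 and -2.60. Espl1, separase itself, the protease that cuts cohesin at anaphase, had -2.50 and -2.60. The inhibitor and its protease thus had nearly the same ratio. Cdc20, which activates the anaphase promoting complex, averaged -2.45 ± 0.10 (SD, n = 2). Among the checkpoint proteins, Bub1 had -2.01 and -2.05, and Mad2l1, which sequesters Cdc20, had -1.79 and -1.77. Bub1b averaged -2.09 ± 0.07, but its probes differed: 2 of them averaged -3.12 and -2.90 and the third -0.26. Bub3, which carries Bub1 and Bub1b to kinetochores and is also known to act in interphase, had -0.35 and -0.40 (limma adjusted p 0.00834) and was no longer called with array medians subtracted (-0.15, adjusted p 0.118). Adjusted p of the other 7 genes lay between 0.00117 and 0.00141.

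The mitotic kinases, grouped with Birc5, split, and 4 of these 6 genes were called lower, against 49.7% of all genes. Plk1, the Polo kinase of mitotic entry and spindle assembly, had -2.99 and -2.98, or 7.93-fold lower in lung, and its probes averaged -3.43 and -2.55. Birc5, or survivin, a subunit of the chromosomal passenger complex, had -2.87 and -2.83, or 7.21-fold lower. Both passed with a limma adjusted p of 0.00117. The Aurora kinases, by contrast, lay within 2-fold of 0. Aurka, the kinase of spindle poles, had -0.52 and -0.50 (adjusted p 0.00404). Aurkb, the kinase that Birc5 works with, had -0.03 and -0.05 and did not pass (adjusted p 0.286). Aurkc, known mainly from germ cells, averaged -0.20 ± 0.07 (SD, n = 2; adjusted p 0.0438), with probes at -0.65 and 0.26. Plk4, which drives centriole duplication, had -0.18 and -0.49 and did not pass (adjusted p 0.0869). Aurkc ended at 0.025 and Aurkb at 0.18 with array medians subtracted, and neither was called then (adjusted p 0.801 and 0.0751). Aurka and Aurkb were each read by a single probe, so their distance from Plk1 and Birc5 rests on that probe, and the difference between the genes was not tested.

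All 6 genes of spindle assembly, chromosomes and cytokinesis were at least 2-fold lower in both arrays, against 15.8% of all genes. Their median was -2.48. Tpx2, which activates Aurka on the spindle, had -3.30 and -3.37, or 10.1-fold lower in lung. Prc1, which bundles microtubules of the central spindle, had -2.98 and -2.88. Racgap1, the partner of Kif23 in centralspindlin, had -2.55 and -2.57 over 3 probes that ran from -2.78 to -2.33. Top2a, the topoisomerase that untangles chromosomes, averaged -2.41 ± 0.08 (SD, n = 2), and its probes lay only 0.03 apart. Mki67, the Ki-67 antigen widely used to stain dividing cells, had -1.79 on both arrays, with probes at -2.23 and -1.34. Nusap1, which links microtubules to chromosomes, had -1.62 and -1.54. The limma adjusted p of these genes lay between 0.00117 and 0.00152.

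Of 12 kinesins grouped as mitotic, 8 (66.7%) were lower, against 49.7% of all genes, and 4 did not pass. Their median was -1.24. Kif20a, which brings the chromosomal passenger complex to the central spindle, was the lowest of all members, with -4.32 and -4.24, or 19.4-fold lower in lung. Kif2c, which takes microtubules apart at centromeres, had -3.24 and -3.28, or 9.58-fold lower. Kif20b, a kinesin of cytokinesis, had -3.00 on both arrays. Below -2 on both arrays were also Kif22, which pushes chromosome arms to the spindle equator (-2.51 ± 0.05; SD, n = 2), and Kif23, of centralspindlin (-2.39 ± 0.05). Kif11, which separates the spindle poles, had -1.85 and -1.57, and its probes averaged -2.11 and -1.31. Kif18a, which damps chromosome movement, averaged -0.77 ± 0.11. The adjusted p of these 7 lay between 0.00117 and 0.00603 in limma's test.

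The rest of that group was near 0. Kif2b averaged -0.27 ± 0.09 (SD, n = 2; limma adjusted p 0.0355) and was no longer called with array medians subtracted (-0.05, adjusted p 0.611). Kif2a, which also depolymerises microtubules in neurons, averaged -0.08 ± 0.08, with probes at -0.22 and 0.06. Kif24, a kinesin of centrioles, had 0.38 and -0.47, so the arrays disagreed in sign. Kif15, which can stand in for Kif11 in human cells, had 0.03 and -0.02. Kif4b had 0.36 and 0.13. None of the last 4 passed (adjusted p between 0.0905 and 0.891). With array medians subtracted, Kif15 (0.23, adjusted p 0.0285) and Kif4b (0.47, adjusted p 0.000752) were called higher.

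Of the 21 kinesins of transport and cilia, 9 were lower, 8 higher and 4 did not pass in limma's test. These shares, 42.9% lower and 38.1% higher, were near the 49.7% and 32.9% of all genes. Adjusted p lay between 0.00117 and 0.0346 for the lower ones and between 0.00134 and 0.0178 for the higher. The lowest was Kif26b, an atypical kinesin needed for kidney development in mouse, with -3.03 on both arrays, or 8.16-fold lower in lung. Kif5c, a heavy chain of conventional kinesin found mainly in neurons, had -2.77 and -1.69 (adjusted p 0.0246). Kif3c, a relative of Kif3a and Kif3b, averaged -1.01 ± 0.02. These were the only 3 of the group at least 2-fold lower in both arrays. Kif13b (-0.80 ± 0.03; SD, n = 2), Kif7, which acts in Hedgehog signalling at the primary cilium (-0.51 ± 0.01), Kif21b (-0.47 ± 0.19) and the widely expressed heavy chain Kif5b (-0.43 ± 0.01) were lower by less. Kif1c was called lower with -0.17 and -0.16, above the median gene, and ended at 0.056 with array medians subtracted (adjusted p 0.563). Kif1b had -0.72 on both arrays from probes between -1.50 and 0.13, and Kif5b averaged its value from probes between -0.83 and 0.19. The neuronal heavy chain Kif5a had -0.35 and -0.82 and did not pass (adjusted p 0.0644). With array medians subtracted it moved toward 0, yet was called lower (-0.37, adjusted p 0.0106) in a fit whose variances were estimated anew.

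The kinesins highest in lung included some with a known part in motile cilia. Kif6, which mouse ependymal cilia need, had 1.77 and 1.87 in replicates 1 and 2, or 3.53-fold higher. Kif27, which takes part in building motile cilia in mouse, had 1.18 and 1.23, but this mean came from a probe at 3.22 and a probe at -0.81, on opposite sides of 0. Read by the second of these probes, Kif27 was called lower (adjusted p 0.0222). Kif19, which limits the length of cilia in mouse, had 1.02 and 0.82 (limma adjusted p 0.00654). Kif21a, which restrains microtubule growth at the cell cortex, lay between them at 1.48 and 1.47, or 2.77-fold higher. Kif3a and Kif3b, the motor of transport into cilia, averaged 0.43 ± 0.01 and 0.44 ± 0.04 (SD, n = 2), and 3 probes of Kif3b ran from 0.35 to 0.54. Kif13a, which moves endosomes, averaged 0.38 ± 0.09, and Kif16b, another endosomal kinesin, averaged 0.45 ± 0.08 from probes at -0.26 and 1.17. With the median probe neither was called (adjusted p 0.147 for Kif13a and 0.0782 for Kif16b). Kif1a (1.17 and 0.39), Kif26a (0.30 and 2.00) and Kif12 (0.23 and 0.54) did not pass, with adjusted p of 0.0926, 0.176 and 0.0635. With array medians subtracted all 3 were called higher, with adjusted p of 0.000136 for Kif1a, 0.00242 for Kif26a and 0.000436 for Kif12. Their arrays were far apart, and Kif26a had the largest SD of all members, 1.20.

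**Figure D2:**
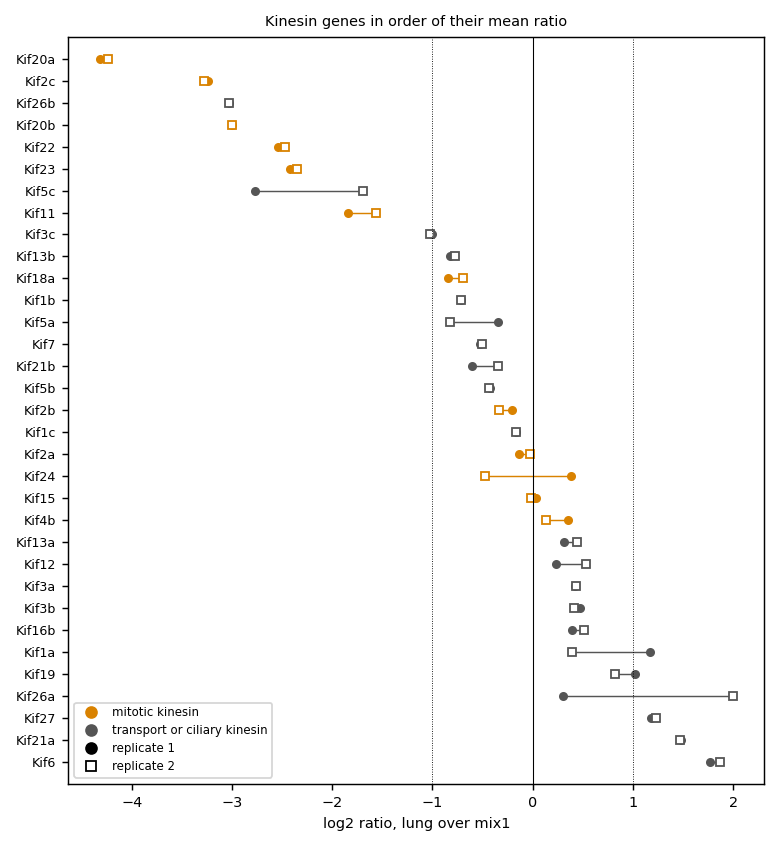
Log2 ratio of lung over mix1 for the 33 kinesin members in order of their mean, lowest at the top. Orange marks the 12 kinesins grouped as mitotic and grey the 21 of transport and cilia, filled circles are replicate 1, open squares replicate 2, and dotted lines mark a 2-fold difference. Mitotic kinesins hold 5 of the 6 lowest places, and Kif6, Kif21a and Kif27 are at the high end.

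Marker genes of other cells differed from list to list, beside 32.9% of all genes called higher and 49.7% called lower. Of 12 motile cilia genes measured, 10 were higher in lung and 2 did not pass, with a median of 3.41 and a range from -0.35 to 5.79, led by Dynlrb2 and by Foxj1 at 4.73 ± 0.14 (SD, n = 2). Of 9 genes of neurons and neuroendocrine cells, 3 were higher, 4 lower and 2 did not pass, with Calca at 2.41 ± 0.03 and Uchl1 at -4.95 ± 0.06. All 8 genes of cultured fibroblasts were lower, between -7.44 and -2.22, beside the lower mitotic genes. Erythroid genes were higher for 4 of 4 (2.67 to 4.58) and lymphocyte genes for 3 of 4 (3.37 to 6.18), while Ms4a1, with 0.01 and 4.01, did not pass. The part of these cells in the ratios of the members was not tested. Ratios give no level in either RNA, so which markers were near 0 in lung or in mix1 cannot be read from them.

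The last 7 members, with Cenp, Aurk or Plk names, were grouped apart from the mitotic roles: 4 were higher, 2 lower and 1 did not pass. Of all genes 32.9% were called higher and 49.7% lower. Adjusted p of the 6 that passed lay between 0.00141 and 0.0177 in limma's test. Plk3, a Polo kinase of stress responses, had -1.43 and -1.40 over probes 0.07 apart, or 2.67-fold lower in lung. Plk2, induced by serum and stress in many cells, averaged -0.64 ± 0.05 (SD, n = 2). Kiz, annotated as Plk1s1 and known as a centrosome protein, had 1.30 and 1.34, or 2.49-fold higher. Cenpj, which despite its name builds centrioles, had 0.76 and 0.80. Cenpv and Aurkaip1, a protein first found as an Aurka partner, were called higher at 0.38 ± 0.03 and 0.23 ± 0.02. Plk5 averaged 0.34 ± 0.20 and did not pass (limma adjusted p 0.0740), but was called higher with array medians subtracted (0.56, adjusted p 0.000665).

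Several probes were available for 22 of the 73 members, and 51 members rest on a single probe. In 7 of the 22, probe means lay more than 1 apart on the log2 scale, and in 6 they lay on opposite sides of 0: Aurkc, Kif16b, Kif1b, Kif27, Kif2a and Kif5b. None of these 6 belongs to the members at least 2-fold lower in lung. Kif27 had the widest gap, 4.03, and Bub1b the next, 2.87. In 21 of the 22 the gap between probes exceeded that between the arrays. The array gap was taken after the probes were averaged, which can shrink it, so these gaps are unlike measures. The median SD between arrays was 0.05 for the members and for all genes.

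**Figure D3:**
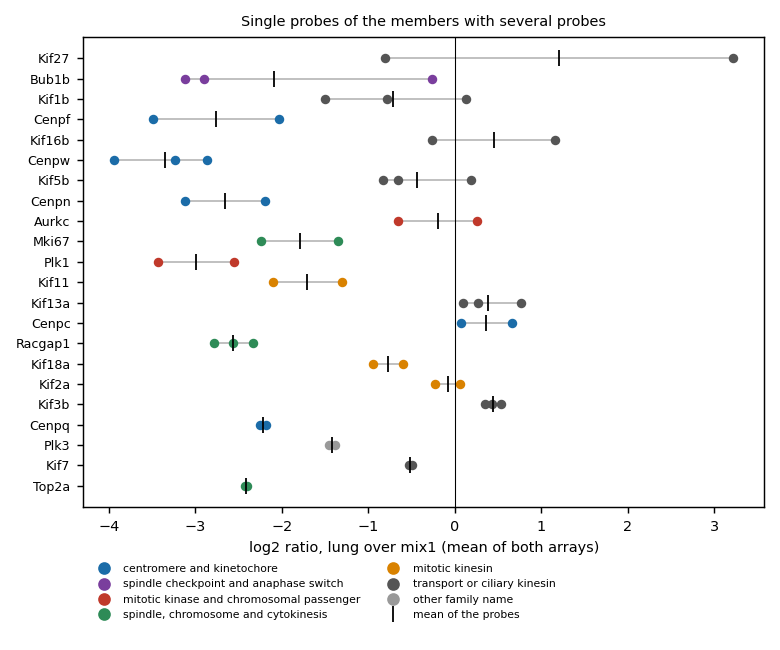
Mean log2 ratio of lung over mix1 for each probe of the 22 members with several probes, ordered by the gap between their probes. Points are probes coloured by role, grey lines span them, and black ticks are the mean used for the gene. Probes of Kif27 lie at -0.81 and 3.22, those of Top2a 0.03 apart.

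Promoter windows of 300 bases, from 250 before the gene start to 50 from the start on, were found by symbol for 59 members. TTTGAA, on either strand, was present in 25 of the 39 mitotic members with a window, or 64.1%, against 15.4% of 12891 measured genes and 18.3% of 33469 windows. It was in 22 of the 28 mitotic members that were at least 2-fold lower in both arrays and in 3 of the other 11 (Plk4, Kif15 and Cenpc). Of the 15 transport and cilia kinesins with a window, only Kif26b had it, the lowest of them. In 24 of the 25 mitotic members a match began no more than 120 bases before the start, a limit chosen after the positions were seen. That was so for 48.5% of the measured genes with a match. In the windows printed above, the match begins 57 bases before the start in Spc25 and 49 before it in Cenpi, and at base 5 from the start on, on the other strand, in Ttk and Cenpw. The lowest member, Kif20a, had no TTTGAA in this window but 3 CCAAT boxes, and the highest, Kif6, had 1 CCAAT box and lacked the other motif.

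CCAAT, on either strand, was in 24 of the 39 mitotic members, or 61.5%, against 38.9% of the measured genes. Both motifs stood in 16 of the 39, or 41.0%, against 6.63% of the measured genes. Matches of the motifs overlapped each other only in Mki67. The related TTCGAA was rare, in 5 of the 39 and 2.02% of the measured genes. Shares by role were 8 of 12 centromere and kinetochore genes with TTTGAA, 6 of 8 checkpoint and anaphase genes, 4 of 4 spindle and cytokinesis genes, 3 of 5 kinases and passengers, and 4 of 10 mitotic kinesins. A match is a description of these letters and does not show that a factor binds.

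**Figure D4:**
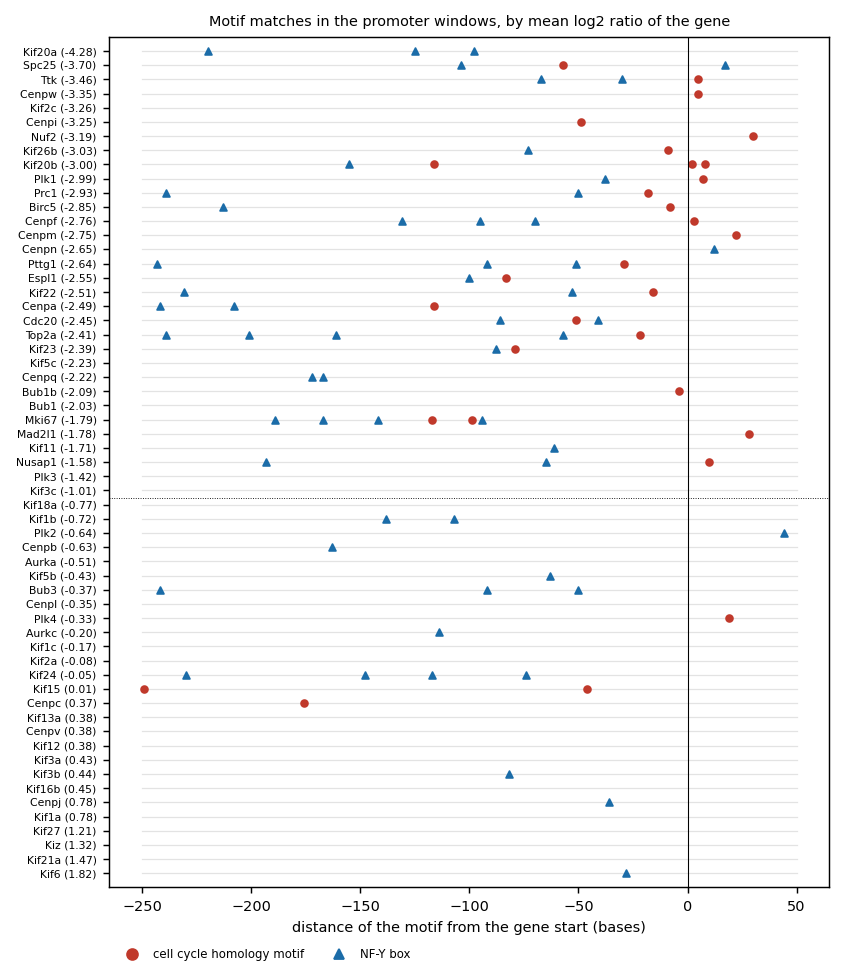
Position of motif matches in the promoter windows of the 59 members found, 1 row a gene, ordered by mean log2 ratio of lung over mix1 (in brackets), lowest at the top. Red circles are matches of the cell cycle homology motif, blue triangles of the NF-Y box, the horizontal axis is the distance from the gene start in bases, and the dotted line divides means below and above -1. Red circles crowd near the start in the upper rows and are rare below the dotted line.

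Other mitosis genes, on a list of 112 of which 94 were measured, were lower in lung for 75, higher for 10 and not past limma's test for 9. Their median was -1.15. Among all genes the same test called 49.7% lower and 32.9% higher, the shares to set beside each count in these lists. Lowest were Hmmr, which binds spindle microtubules, at -3.84 ± 0.11 (SD, n = 2), Ckap2l (-3.69 ± 0.23), Ckap2 (-3.68 ± 0.05) and the kinase Cdk1 (-3.42 ± 0.07). All 4 genes measured of the passenger and shugoshin list were lower, among them Incenp, the scaffold of Aurkb and Birc5, at -2.47 ± 0.04. Of 16 outer kinetochore and checkpoint genes 14 were lower, as were 16 of 17 spindle and cytokinesis genes and 13 of 17 cyclins, kinases and phosphatases. Subunits and partners of the anaphase promoting complex were lower for 10 of 11, but by less, with a median of -0.72.

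Genes called higher came from 3 of these lists. Cohesin and its regulators, which hold sister chromatids together and also shape interphase chromosomes, gave 6: Stag2 (1.43 ± 0.03; SD, n = 2), Stag1 (0.79 ± 0.03), Smc3 (0.73 ± 0.06), Wapl (0.45 ± 0.02), Smc1a (0.35 ± 0.01) and Pds5b (0.20 ± 0.04). Rad21, a cohesin subunit, did not pass at 0.04 ± 0.06, and the cohesin regulators Pds5a (-0.59 ± 0.07) and Cdca5 (-2.26 ± 0.20) were lower. Condensin subunits on the same list, which compact chromosomes at mitosis, were lower, with Ncapd2 at -2.16 ± 0.02 and Ncapg at -1.94 ± 0.47. Among kinases and phosphatases, Nek2 (1.62 ± 0.0026) and Cdc25b (1.21 ± 0.03) were higher, each read by 1 probe. Among transcription factors of mitotic genes, Rbl2, a pocket protein of resting cells, was higher at 1.20 ± 0.14 and Nfyc at 0.76 ± 0.06. Of the 14 on that list 10 were lower, including Mybl2 at -1.78 ± 0.17 and E2f1 at -1.77 ± 0.04. Nfyc is a subunit of NF-Y, whose subunits Nfya (-0.66 ± 0.0003) and Nfyb (-0.20 ± 0.06) were called lower.

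**Figure D5:**
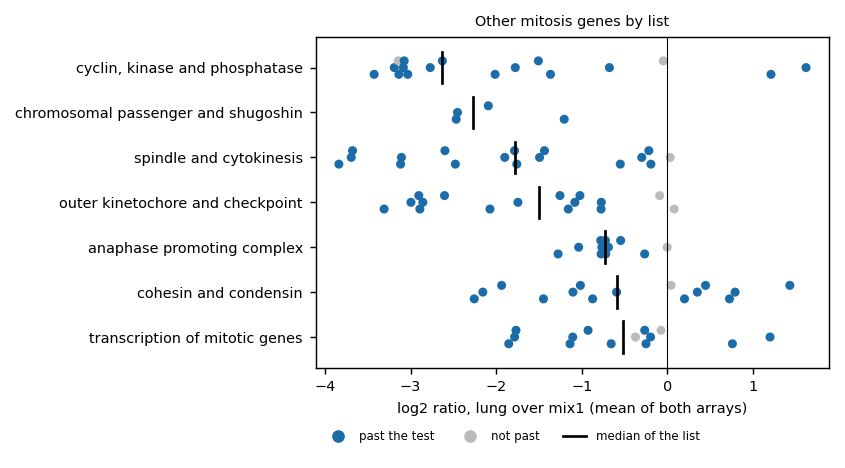
Mean log2 ratio of lung over mix1 for 94 mitosis genes outside the members, in 7 lists ordered by their median. Blue points passed limma's test and grey points did not, and black bars are list medians, from -2.63 for cyclins, kinases and phosphatases to -0.51 for transcription of mitotic genes. Points right of 0 in the cohesin and condensin row are genes of cohesin and its regulators.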

How the data were processed

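Each array held Cy3-labelled lung RNA and Cy5-labelled mix1 RNA. Agilent Feature Extraction is the tool named in the submitters' processing notes. For its version, the background correction, dye normalization and centring, the sources used here give nothing, and background handling sets the size of ratios with a dim channel. The authors' deposited values, 1 per probe and array, were taken as log2 ratios, since as base-10 logarithms their range (-11.74 to 9.09) would exceed that of a scanner. No value was missing or exactly 0, so a filter planned on them had nothing to remove and was left out. Scanner intensities were not used here.

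Gene names came from GEO's platform annotation (20417 with 1 symbol, 19595 unnamed here, none with several). Symbols were updated to the gene table of GRCr8 by accession (16987 probes), current symbol (3035) or synonym (387), and 8 kept theirs. Members were chosen by the annotation symbol and probes averaged per gene. The test was limma 3.58.1 under R 4.3.3 (intercept, eBayes, Benjamini-Hochberg over 15611 genes, threshold 0.05), with 1 residual degree of freedom, after tests on simulated data. Members, role groups and lists were chosen with earlier results of these data known. Every member is named. Both arrays' values or the mean ± SD are given, with adjusted p singly or as a range. Of the other mitosis genes the 4 lowest and those called higher are named, beside a few examples chosen after their values were seen. Proteins were not used here. The alternatives were robust eBayes, treat against 2-fold, array medians subtracted, arrays scaled alike, the median probe, single probes, annotation symbols, adjusted p under 0.01, 2-fold in both arrays, and leaving out each array. Leaving out members with probes of opposite sign was chosen after seeing the data.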

Additional observations from a re-analysis of the deposited data

How the results depend on the processing

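Counts of members called lower ran from 33 to 50 over all the alternatives run, against 49. With treat against 2-fold, 4 members and 3 other mitosis genes were higher and 42 other mitosis genes lower, with 2143 genes higher and 1881 lower in all. At least 2-fold in both arrays were 4 members and 4 other mitosis genes higher, with 2572 genes higher and 2466 lower in all. Both settings ask for a larger change. With array medians subtracted the member median was -0.55 and that of the 45 mitotic members -2.17. In that setting 19 members were higher and 45 lower, with variances estimated anew, so gained calls need not rest on the shift alone. Aurkc (0.025), Aurkb (0.18), Kif2a (0.14), Kif24 (0.17) and Kif1c (0.056) changed sign without being called. With the median probe, the lower of the middle ones where their number is even, the member median was -0.81, Kif16b (-0.26, not called) and Kif27 (-0.81, called lower) changed sign, Cenpc (0.07) and Kif13a (0.27) were no longer called higher, and the median of the transport and cilia kinesins turned to -0.26. The member median was -0.94 with single probes, where each gene is read by its probe furthest from 0. It was -1.42 without members whose probes disagree in sign, and -0.83 to -0.78 with either array alone. The motif share was 12.8% of mitotic members and 2.02% of measured genes for TTCGAA, and 61.5% and 38.9% for CCAAT, which are other motifs. With limma adjusted p under 0.01, 8 members were no longer called: Kif5c, Aurkc, Kif2b, Kif21b, Kif1c, Aurkaip1, Kif13a and Kif16b. Robust eBayes, scaling between arrays and annotation symbols changed the call of no member. Single probes changed none either, but taking the probe furthest from 0 favours an unchanged call, so this says little about probes that disagree. No paired analysis was possible because the arrays form 1 group against a common RNA. With each array alone no test was possible, as no residual degree of freedom was left. Array intensities were not used here, so dim probes could not be set apart.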
